A study of Mus musculus with 4 samples.

Results

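Intergenic regions that were open only in the BPA libraries were examined in ATAC-seq peak lists of adipose tissue from CD-1 mice, an outbred stock. ATAC-seq inserts adapters into accessible DNA with a transposase, so that a peak marks a stretch of open chromatin. Visceral adipose nuclei came from 8-week-old mice, with 2 control and 2 BPA libraries. In both arms the pregnant founder dams were injected. The BPA arm descended from dams given 50 mg/kg bisphenol A (BPA) daily from embryonic day 7.5 to 13.5, and the control arm from dams given the sesame oil vehicle, so the mice studied were not themselves treated. The sample labels and the study's text give different generations for the BPA mice, and the sex of the mice was not given in the sources used here. The tissue came from 4 mice, so a group rests on 2 animals of an outbred stock.

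The peaks of the 4 libraries on chromosomes 1 to 19 were merged where they overlapped. Regions were selected on the peak calls themselves: a peak in both BPA lists, no peak in either control list, more than 500 bp from every curated RefSeq start site (mm10) and a midpoint outside all curated transcripts. Of 144198 merged regions, 60267 were intergenic and distal, and 5551 of these were BPA-only, which is 9.21% of the intergenic distal regions. The mirror class, with a peak in both control lists and in neither BPA list, held 3849 regions or 6.39%, and 12278 intergenic regions had a peak in all 4 lists. A further 7451 BPA-only regions lay inside transcripts away from start sites, 10.8% of the 68765 regions there. At promoters, 671 of 15166 regions were BPA-only. The rule fixes these differences between BPA and control, so nothing is read from them. Leaving out a library widens the rule: 13197 regions (22.3%) qualified without BPA 1, 8171 (15.9%) without control 2 and 7127 (13.9%) without control 1. A region without a control peak is one where no peak was called, which is not a measurement of closed chromatin.

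Many accessible sites outside genes are enhancers or insulators, stretches that bind sequence-specific transcription factors and act on promoters at a distance. Adipose tissue is a mixture of large adipocytes with blood vessel endothelium, progenitors, fibroblasts, macrophages and mesothelium. Its endothelium lines a dense capillary bed and uses ETS, SOX, GATA and Kruppel-like factors, whereas adipocyte enhancers are known for PPAR gamma, C/EBP and NFI factors. In bulk tissue, more nuclei of a cell type and more open chromatin per nucleus cannot be told apart.

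Sequences at 5 of the 10 best-ranked BPA-only regions are shown first, because they carry motifs that set the class apart below. For the same reason 4 BPA-only regions are shown whose nearest start site was that of Kdr or Cxcl12, 35742 to 163976 bp away. Each is the plus strand of mm10 from 100 bp before to 100 bp after the summit of the strongest peak. Capitals mark matches to any of the 22 motifs searched. Of the best-ranked regions not shown, regions 2 and 6 held none of these motifs, and region 4 held an AP-1 site. Region 5 held a CTCF motif, and region 8 a GATA site and a nuclear receptor half-site. Regions 1, 7 and 10 and all of the Kdr and Cxcl12 windows hold the ETS form ACAGGAAG or its complement CTTCCTGT, which is favoured by the endothelial factors ERG and FLI1. Region 9 holds TGACTCA, the site of AP-1 (Fos and Jun dimers), in 2 places, once across the summit, and region 3 holds its complement TGAGTCA.
Region 1, chr10:83871935-83872135: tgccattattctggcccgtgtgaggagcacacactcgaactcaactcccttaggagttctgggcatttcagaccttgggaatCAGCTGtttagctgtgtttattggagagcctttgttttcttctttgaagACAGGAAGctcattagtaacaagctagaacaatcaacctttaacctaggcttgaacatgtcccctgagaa
Region 3, chr5:139015078-139015278: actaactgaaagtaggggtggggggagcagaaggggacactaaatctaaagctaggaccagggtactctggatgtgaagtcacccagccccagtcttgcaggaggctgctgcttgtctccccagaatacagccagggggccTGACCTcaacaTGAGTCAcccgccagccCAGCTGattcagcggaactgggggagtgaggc
Region 7, chr12:111386757-111386957: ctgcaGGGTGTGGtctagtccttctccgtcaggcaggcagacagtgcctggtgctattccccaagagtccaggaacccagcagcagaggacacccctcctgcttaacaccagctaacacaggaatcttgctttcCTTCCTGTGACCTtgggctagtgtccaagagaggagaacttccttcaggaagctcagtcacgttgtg
Region 9, chr13:43684774-43684974: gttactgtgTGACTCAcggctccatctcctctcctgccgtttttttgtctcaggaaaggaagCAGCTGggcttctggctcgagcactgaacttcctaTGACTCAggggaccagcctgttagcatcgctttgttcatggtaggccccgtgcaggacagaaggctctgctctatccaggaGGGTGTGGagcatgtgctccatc
Region 10, chr9:122065033-122065233: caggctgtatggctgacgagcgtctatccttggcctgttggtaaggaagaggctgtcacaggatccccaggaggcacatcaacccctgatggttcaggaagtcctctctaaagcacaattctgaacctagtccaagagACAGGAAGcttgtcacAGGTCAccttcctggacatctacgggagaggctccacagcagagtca
Kdr upstream, chr5:76040545-76040745: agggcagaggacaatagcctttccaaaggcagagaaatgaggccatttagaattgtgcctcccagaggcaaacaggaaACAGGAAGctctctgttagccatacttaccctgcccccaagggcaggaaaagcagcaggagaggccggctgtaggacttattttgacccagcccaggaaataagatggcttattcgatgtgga
Kdr downstream, chr5:75814379-75814579: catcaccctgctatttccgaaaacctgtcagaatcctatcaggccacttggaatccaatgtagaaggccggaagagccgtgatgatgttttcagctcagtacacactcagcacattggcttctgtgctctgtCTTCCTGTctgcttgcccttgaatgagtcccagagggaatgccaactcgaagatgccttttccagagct
Kdr upstream, nearer, chr5:76014097-76014297: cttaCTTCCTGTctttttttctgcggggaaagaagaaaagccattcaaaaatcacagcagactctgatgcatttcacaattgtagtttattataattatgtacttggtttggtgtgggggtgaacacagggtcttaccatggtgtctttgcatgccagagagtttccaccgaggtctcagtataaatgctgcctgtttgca
Cxcl12 downstream, chr6:117271666-117271866: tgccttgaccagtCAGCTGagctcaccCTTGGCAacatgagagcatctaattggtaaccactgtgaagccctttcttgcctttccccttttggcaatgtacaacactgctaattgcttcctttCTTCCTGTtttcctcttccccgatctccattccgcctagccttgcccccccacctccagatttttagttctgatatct

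The first question was how strong the BPA-only intergenic regions were in each BPA library. In BPA 1 the fold of the read pile-up over local background at their strongest peak ran from 2.05 to 14.9 with a median of 5.16. In BPA 2 it ran from 1.68 to 14.7 with a median of 5.29. The folds of the same region were similar in both libraries, with 51.7% of regions higher in BPA 1, and the rank correlation over the 5551 regions was 0.641 (Spearman's rho, a description over regions that share libraries). The −log10 q-value was lower in BPA 1 (median 6.59, range 1.31 to 63.0) than in BPA 2 (median 15.5, range 1.48 to 150.0). Depth moved with this difference: the lowest local background, which scales with read number, was 1.16 reads in BPA 1 and 3.80 in BPA 2, against 2.85 and 2.70 for the controls. The median pile-up at the regions was 14 reads in BPA 1 and 37 in BPA 2.

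**Figure D1:**
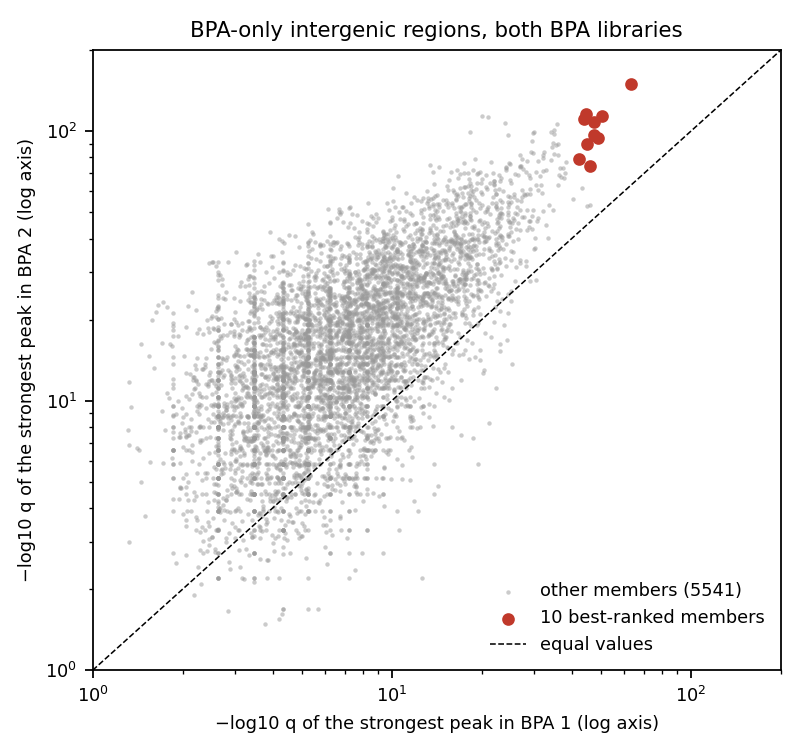
Each point is a BPA-only intergenic region, with the −log10 q-value of its strongest peak in BPA 1 (x axis) and BPA 2 (y axis), both on log axes. Most points lie above the line of equal values, and the 10 best-ranked regions (red) sit between 42.3 and 63.0 in BPA 1 and between 74.1 and 150.0 in BPA 2.

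Most BPA-only intergenic regions were not in the best 50% of both BPA lists. Ranked by q-value, where 0% is the best peak, the median rank was 63.3% in BPA 1 and 48.0% in BPA 2. Intergenic regions with a peak in all 4 lists ranked better, with medians of 40.6% and 29.9%. Of the BPA-only regions, 1522 (27.4%, 95% Wilson interval 26.3 to 28.6) were in the best 50% of both BPA lists. In the best 25% of both were 249 (4.49%, 3.97 to 5.06), and 2 were in the best 10% of both. The weakest by its lower q-value was a region on chromosome 6, 139678 bp from Aebp2, with a −log10 q of 1.31 in BPA 1 and 7.80 in BPA 2.

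Within a region the peaks of both libraries lay close together, which the choice of regions fixes in part. A region with 1 peak from each BPA list is formed only where those peaks overlap. Summits were a median of 67 bp apart and within 100 bp in 66.7% of regions, 98.6% of regions held 1 peak from each list, and in 68.7% each peak covered at least 50% of the other. A control peak lay within 10 kb of 69.7% of the regions and within 1 kb of 7.17%, with a median gap of 5908 bp. For control-only regions, a BPA peak lay within 10 kb of 49.9% and within 1 kb of 6.18%, with a median gap of 10057 bp. Local background was under 1.5 times the lowest of its library in both BPA lists for 46.1% of the regions and at or above 3 times the lowest in both for 11.4%.

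At the 500 bp distance that bounds the class, the nearest regions kept were near Cacna1e at 526 bp, with −log10 q of 2.77 in BPA 1 and 6.39 in BPA 2, Ppy at 559 bp (5.39 and 22.6) and Sparcl1 at 564 bp (13.1 and 12.2). Those just too close were near 2310005A03Rik at 498 bp (7.66 and 42.2), Serpina4-ps1 at 483 bp (5.46 and 4.53) and Folr1 at 480 bp (5.92 and 15). The values on both sides of the boundary overlapped.

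The best-ranked region, region 1 (chr10:83871561-83872469), lay 149170 bp downstream of the start site of 1500009L16Rik. Its fold was 14.0 in BPA 1 and 11.4 in BPA 2, with −log10 q of 63.0 and 150.0 and pile-ups of 78 and 222 reads. It ranked at 7.16% of the BPA 1 list and 6.97% of the BPA 2 list. The nearest control peak was 9414 bp away.

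Several of the next regions lay near genes of signalling proteins. Region 2 (chr17:31905609-31906455) was 50139 bp upstream of Sik1, a salt-inducible kinase, with folds of 10.7 in BPA 1 and 9.65 in BPA 2. Region 3 (chr5:139014778-139015640) was 20234 bp upstream of Pdgfa, a ligand of the platelet-derived growth factor receptor on adipose progenitors, with folds of 10.7 and 9.32. Region 4 (chr14:69088541-69089765) was 59830 bp downstream of Stc1, a secreted glycoprotein hormone, with folds of 10.5 and 9.46. All 3 genes had a promoter peak in all 4 libraries, so the difference in peak calls at these loci was at the distal region and not at the promoter.

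Region 5 (chr15:78320553-78321484) differed in this respect. It was 4825 bp upstream of Csf2rb, the shared beta chain of the receptors for GM-CSF, interleukin-3 and interleukin-5 in myeloid cells, and the Csf2rb promoter itself had a peak in BPA 1 and BPA 2 only. The folds were 14.9 and 13.5, the highest of the 10 in both libraries, and the nearest control peak was 30262 bp away. Region 6 (chr2:144085376-144086948), inside a predicted RefSeq transcript, was 53289 bp downstream of Banf2, with folds of 11.5 and 9.49 and no promoter peak in any library.

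Regions 7, 8 and 10 flanked genes that are open in every library. Region 7 (chr12:111386076-111387402) was 9139 bp upstream of Cdc42bpb, a kinase that acts downstream of Cdc42 on the cytoskeleton, with folds of 10.4 in BPA 1 and 11.2 in BPA 2. Region 8 (chr8:72268091-72269029) lay between Ap1m1, a clathrin adaptor subunit whose start site was 28531 bp away, and Klf2, the flow-responsive factor of endothelium, whose start site was 50513 bp away. Its folds were 8.98 and 8.64, the lowest of the 10 in both libraries. Region 10 (chr9:122064786-122065533) was 52133 bp upstream of Snrk, a kinase related to AMPK, with folds of 12.4 and 8.84, and had a control peak 1977 bp away. Region 9 (chr13:43684362-43685152), inside a GENCODE gene and 31917 bp upstream of Gm20751, had its summits at the same base in both libraries, folds of 13.8 and 12.1, and a nearest control peak 40697 bp away.

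The next question was where the class lay relative to genes. The median distance from the summit to the nearest curated start site was 35332 bp (95% interval of the median 33804 to 37068), against 60450 bp for control-only regions, 32248 bp for regions in all 4 lists and 46200 bp for all intergenic distal regions. Within 10 kb of a start site lay 17.1% of the BPA-only regions, a further 42.9% lay at 10 to 50 kb, 19% at 50 to 100 kb and 20.2% at 100 to 500 kb. Only 46 (0.829%) were more than 500 kb away, against 5.64% of control-only and 5.21% of all intergenic distal regions. In position the BPA-only regions thus lay near those shared by all 4 libraries and away from the control-only ones. They were upstream of the nearest start site in 60.6% of cases, and all intergenic distal regions in 60.1%.

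Base composition also differed between the classes. The median G+C content was 48.1% (47.9 to 48.2) in BPA-only regions, 47.3% in regions of all 4 lists, 45% in all intergenic distal regions and 42.2% in control-only regions. When the 60267 regions were divided into 5 equal bins of G+C, the share that was BPA-only rose with every bin, from 1.66% through 6.10%, 9.96% and 12.8% to 15.5%. The share in all 4 lists rose likewise, from 5.04% to 29.3%, and the control-only share fell over the same bins, from 9.38% to 2.85%. BPA-only regions had a median width of 728 bp, between the 614 bp of control-only regions and the 1081 bp of regions in all 4 lists.

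**Figure D2:**
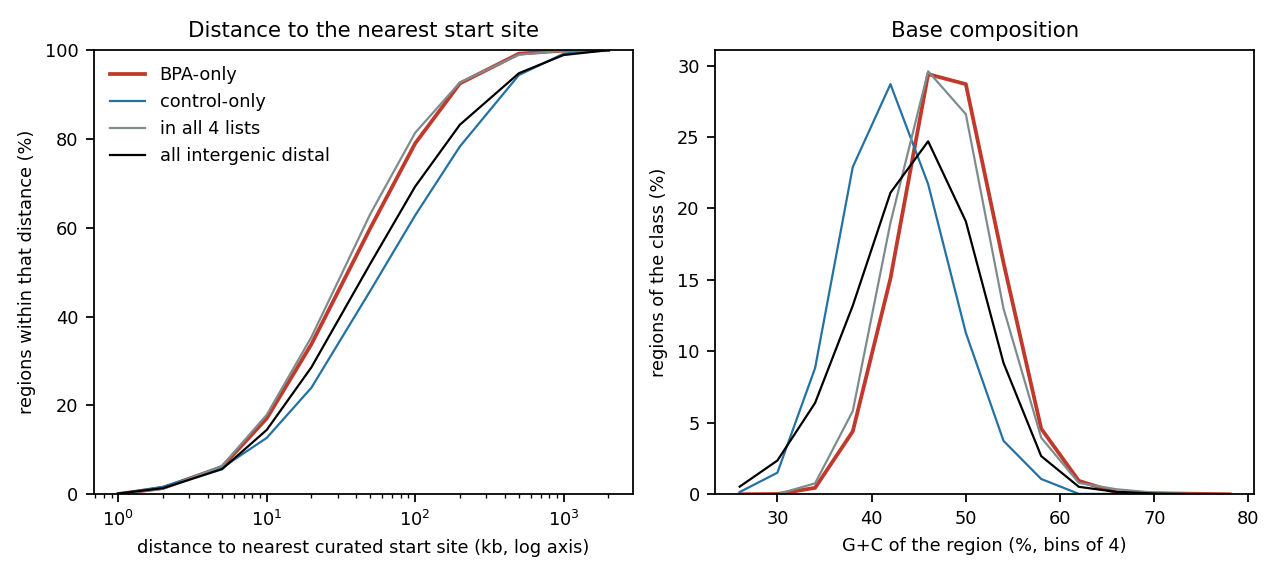
Left, the percentage of regions within a given distance of the nearest curated start site (kb, log axis), and right, the distribution of G+C content in bins of 4 percentage points, for 4 classes of intergenic distal region. The BPA-only curve (red) runs beside that of regions in all 4 lists, with medians of 35332 and 32248 bp and of 48.1% and 47.3% G+C, while the control-only curve (blue) is shifted to greater distance and lower G+C, with medians of 60450 bp and 42.2%.

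Motifs were counted within 100 bp either side of the strongest summit, on both strands. The ETS form ACAGGAAG was found in 387 of 5551 BPA-only windows, 6.97% (6.33 to 7.67), against 3.61% of all intergenic distal windows, 3.47% of windows in all 4 lists and 1.90% of control-only windows. The ETS form GAGGAAGT, which is favoured by the macrophage and B-cell factor PU.1, was found in 6.0% (5.40 to 6.65) against 3.04%, 2.70% and 1.17%. The site AACAATGG of the SOX factors, which include the endothelial SOX17 and SOX18, was found in 1.57% (1.27 to 1.93) against 0.821%, 0.676% and 0.390%. These 3 motifs had the highest ratios of BPA-only share to overall share among the 22. Next came the general ETS form CCGGAAGT of GABPA and ELK, at 0.522% (0.364 to 0.749) against 0.282%, 0.464% and 0.104%. Either ACAGGAAG or GAGGAAGT occurred in 12.5% of BPA-only windows and 6.47% of all windows, and both together in 0.450% and 0.184%. With the class chosen without control 2, the excess over all windows narrowed from 3.36 to 2.05 percentage points for ACAGGAAG and from 2.96 to 1.55 for PU.1 type ETS.

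AP-1 sites (TGACTCA) were present in 11.5% (10.7 to 12.4) of BPA-only windows and in 7.98% of all, 8.78% of those in all 4 lists and 8.03% of control-only windows. The form CCCNNGGGA of the EBF factors, which act in adipocyte and B-cell lineages, was at 6.22% against 4.39% overall and 5.70% in all 4 lists. RBPJ (GTGGGAA), the DNA-binding factor of the Notch pathway, was at 6.11% against 4.79% and 5.38%, and the E-box CAGCTG at 18.1% against 13.9% and 17.3%. For these last 3 motifs, unlike AP-1, the interval of the BPA-only share reached or nearly reached the share in all 4 lists. The half-site AGGTCA of nuclear receptors, PPAR and RXR among them, was at 16.5% (15.5 to 17.5) of BPA-only windows. It was at 14.0% of all windows, 14.6% of those in all 4 lists and 13.2% of control-only windows.

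Other motifs were rarer in the class. The motif of CTCF, the insulator protein, was found in 73 windows or 1.32% (1.05 to 1.65), against 3.28% of all, 4.84% of those in all 4 lists and 6.63% of control-only windows. The half-site CTTGGCA of NFI factors was at 6.27% (5.66 to 6.94) against 7.57%, 9.40% and 10.6%, and the C/EBP site TTGCGCAA, rare in every class, was found in 1 BPA-only window of 5551 (0.0180%, 0.00318 to 0.102) and in 0.103% of all windows. GATA sites (AGATAAG) were at 2.67% (2.27 to 3.12) against 3.39% of all, 2.47% of those in all 4 lists and 6.29% of control-only windows. Their factors include GATA2, whose gene is on the endothelial list below. TEAD sites (ACATTCCA) were at 1.51% (1.22 to 1.87) against 1.88%, 1.98% and 2.75%. For RUNX (TGTGGTT), FOX (TGTTTAC), TCF (ATCAAAG) and MEF2 (CTAAAAATA) the interval of the BPA-only share contained the share of all windows.

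Because motif letters depend on base composition, the count was repeated in windows with 45 to 55% G+C. There the ETS form ACAGGAAG stood at 7.14% of 3178 BPA-only windows, 4.56% of all, 3.86% of those in all 4 lists and 2.54% of control-only windows. PU.1 type ETS stood at 6.70%, 3.62%, 2.93% and 1.58%, SOX at 1.67%, 0.768%, 0.666% and 0.343%, and AP-1 at 12.3%, 9.23%, 9.68% and 8.93%. CTCF stood at 1.38%, 3.97%, 5.22% and 5.84%. The order of the BPA-only class against the other 3 was thus kept for these 5 motifs at like base composition, and the gap to all windows was smaller there than without the limit on G+C for ACAGGAAG and AP-1. It was also smaller for EBF, at 6.45% against 5.46%, and RBPJ, at 6.26% against 5.66%. The nuclear receptor half-site stood at 17.7% of BPA-only and 15.8% of all windows within this range of G+C. The Kruppel-like site CCACACCC was at 2.63% (2.24 to 3.09) of BPA-only and 1.92% of all windows without the limit on G+C. Within the limit it was at 2.93% (2.39 to 3.57) and 2.46%, so the interval there contained the share of all windows. Shares for the remaining motifs are plotted by class. A match describes the letters in a window and not the binding of a factor.

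**Figure D3:**
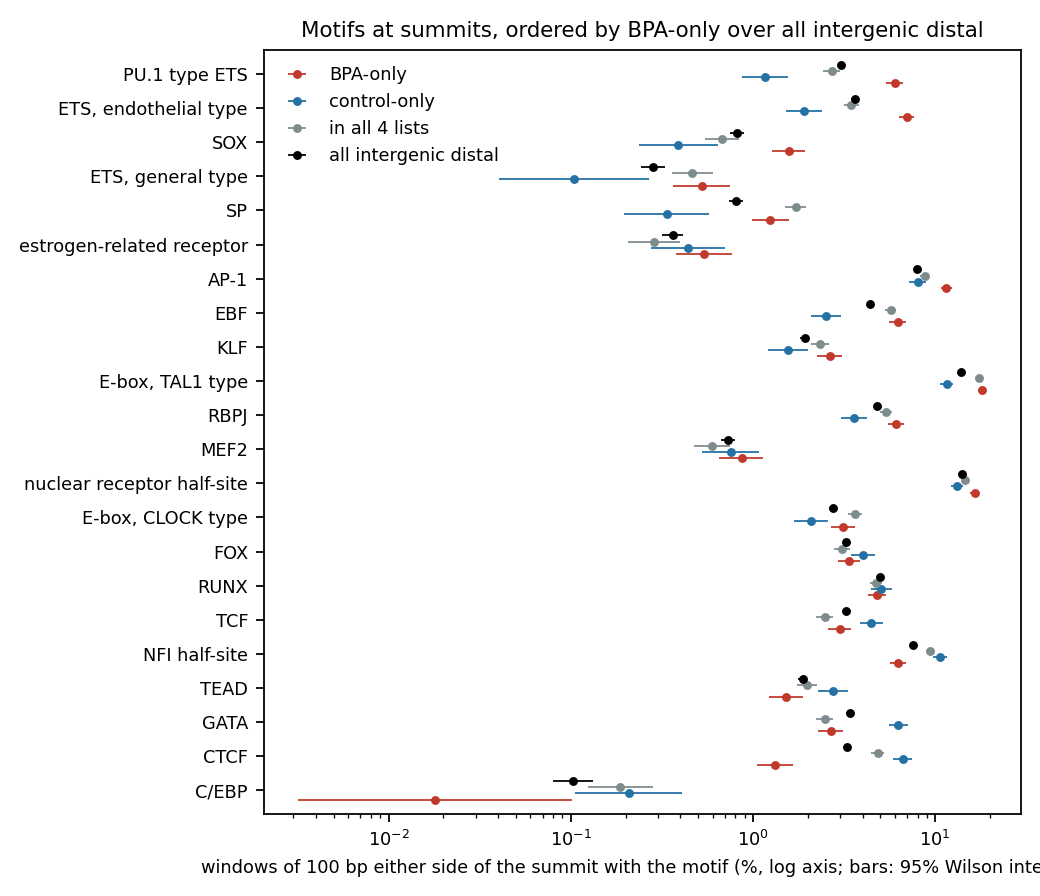
Percentage of summit windows (100 bp either side) that hold each of 22 motifs (log axis), by class of intergenic distal region, with 95% Wilson intervals that cover counting error only. From top to bottom the motifs run from those most over-represented in BPA-only windows relative to all windows, led by PU.1 type ETS (6.0% and 3.04%), to CTCF (1.32% and 3.28%) and C/EBP.

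The nearest start sites belonged to 3392 genes, of which 1151 were nearest to at least 2 BPA-only regions and 127 to at least 5. The gene with the most was Gm17746, with 16 of its 52 intergenic distal regions and no promoter peak in any library, which says only that its start site was the nearest. Cxcl12, the chemokine that binds Cxcr4 and Ackr3 and guides vascular and haematopoietic cells, had 15 of 33. Plpp3, a phosphatase of lysophospholipids, had 14 of 66, Klf4 had 11 of 72, Tle3, a corepressor that partners PPAR gamma, had 11 of 34, and Gm4668 had 11 of 40. Kdr, the main receptor for VEGF-A, had 10 of 27. Foxl1, Rybp, Lrrc32, Rplp1 and Rbpj had 9 each, of 24, 32, 14, 24 and 26, as did 9430078K24Rik of 41 and Mir21c of 46, and Gm27162 had 8 of 38. Across all genes the share was 9.21%. Among these 15, Lrrc32, which displays latent TGF-beta on the cell surface, and Cxcl12 stood furthest above it, at 9 of 14 and 15 of 33. The 15 genes were chosen for their number of BPA-only regions, so shares above 9.21% follow in part from the choice and are a description.

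The 15 regions of Cxcl12 lay on both sides of the gene, from 31396 to 198677 bp from its start site. Their folds were 3.29 to 7.89 in BPA 1 (median 5.1) and 3.94 to 8.43 in BPA 2 (median 6.08), so they were near the median of the whole class in BPA 1 and above it in BPA 2. None of the 33 intergenic distal regions of Cxcl12 was control-only, and 4 were in all 4 lists, as was the promoter. The 10 regions of Kdr were stronger, with folds of 3.26 to 11.7 in BPA 1 (median 7.07) and 2.93 to 10.3 in BPA 2 (median 6.49). The best of them (chr5:75834817-75836306, 142782 bp downstream) had −log10 q of 34.0 in BPA 1 and 99.1 in BPA 2, and the weakest in BPA 1 (chr5:75900391-75901117) had 2.01 and 6.74.

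The ETS form was frequent at Kdr. Of its 10 BPA-only regions, 6 held ACAGGAAG within 100 bp of the summit (60%, 31.3 to 83.2), against 0 of its 17 other intergenic distal regions (0 to 18.4%). These 6 were all of the ETS-bearing BPA-only windows near the 30 endothelial genes, 6 of 43 or 14.0%, and 2 of the 128 other windows near those genes held it. Away from the endothelial genes the form stood at 6.92% of 5508 BPA-only windows and 3.28% of the other windows, so most of the class's difference in this motif came from other genes. Kdr was looked at in this way after its values were known.

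Gene lists of cell types and pathways were then compared by the share of their intergenic distal regions that was BPA-only, beside 9.21% overall. The lists were drawn up with earlier results of these data known, so their shares are a description and not independent support. Endothelial genes had 43 of 171 (25.1%, 19.2 to 32.1), from 17 of 30 genes. Kdr had 10, Ets1, an ETS factor of endothelium and lymphocytes, had 6 of 12, Egfl7, a protein secreted by endothelium, had 4 of 8, and Gpihbp1, which carries lipoprotein lipase to the capillary lumen, had 4 of 4. The control-only share of the list was 5.85%, beside 6.39% overall.

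Promoters of the endothelial list moved with this. A peak within 500 bp of a start site was found for 16 of the 30 genes in control 1 and 13 in control 2, against all 30 in each BPA library, and 14 of the 30 promoters were BPA-only, among them those of Egfl7 and Gpihbp1. Over all genes with a curated start site 2.74% of promoters were BPA-only, with peaks at 14177, 13923, 14603 and 15526 of 24963 promoters in the same order of libraries. The 30 genes were listed as markers of the cell type, though not all, Ets1 among them, are confined to it. The higher number of open promoters on this list stands beside every result on vascular genes here, and its part in them was not tested. Promoters of the adipocyte list, which check the labelled tissue, were open at 22, 21, 22 and 22 of 25 genes.

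Related lists were also above the overall share. Genes of vascular growth and the Notch pathway had 39 of 206 (18.9%, 14.2 to 24.8). Of these 39, 15 were the Cxcl12 regions already counted, so the share rested in large part on a gene named for its number of BPA-only regions. The scavenger receptor of Cxcl12, Ackr3, had 8 of 25. Its signalling receptor Cxcr4 and the Notch ligand Jag1 had 4 each, of 27 and 37. Promoters of Cxcl12, Ackr3, Cxcr4 and Jag1 were open in all 4 libraries. Kruppel-like factors had 26 of 170 (15.3%, 10.7 to 21.5) and 2 control-only regions, with Klf4 at 11, Klf7 at 5 of 17 and Klf3 and Klf2 at 2 each, and all 11 of their promoters were open in all 4 libraries. Macrophage genes had 6 of 26 (23.1%, 11.0 to 42.1), from only 3 of 10 genes. Among these, Itgam, an integrin of myeloid cells, had 2 of 4. Csf1r, the receptor for M-CSF, had 1 of 2, and no promoter peak in any library. Macrophage promoters were open for 4 and 5 of 10 genes in control 1 and control 2 and for 8 and 9 in BPA 1 and BPA 2, and the part of macrophage nuclei was likewise not tested.

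Lists of adipocyte identity were near the overall share. Adipocyte genes had 9 of 96 (9.38%, 5.01 to 16.9), with Pparg, the master regulator of adipogenesis, at 3 of 7, and thermogenic adipocyte genes had 4 of 51 (7.84%, 3.09 to 18.5). Progenitor and fibroblast genes had 24 of 195 (12.3%, 8.41 to 17.7), of which 11 were the Klf4 regions already counted, Wnt and TGF-beta genes 21 of 188 (11.2%, 7.42 to 16.5), and AP-1 and early response genes 4 of 49 (8.16%, 3.22 to 19.2). Nuclear receptors, which include the estrogen receptors that bind BPA, had 13 of 205 (6.34%, 3.74 to 10.5), with 3 of 19 near the glucocorticoid receptor Nr3c1 and 2 of 51 near Nr2f2. Lymphatic endothelial genes were at 2 of 57 (3.51%, 0.968 to 11.9), both near Nr2f2, and had 7 control-only regions.

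Smaller lists gave wide intervals, all of which contained 9.21%. Lymphocyte genes had 4 of 30, epithelial genes 4 of 20, germ cell genes 3 of 19, pericyte and smooth muscle genes 1 of 18, mesothelial genes 1 of 16, Schwann cell genes 1 of 11 and hepatocyte genes 0 of 8. Hepatocyte promoters were open at no more than 2 of 6 genes in any library.

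**Figure D4:**
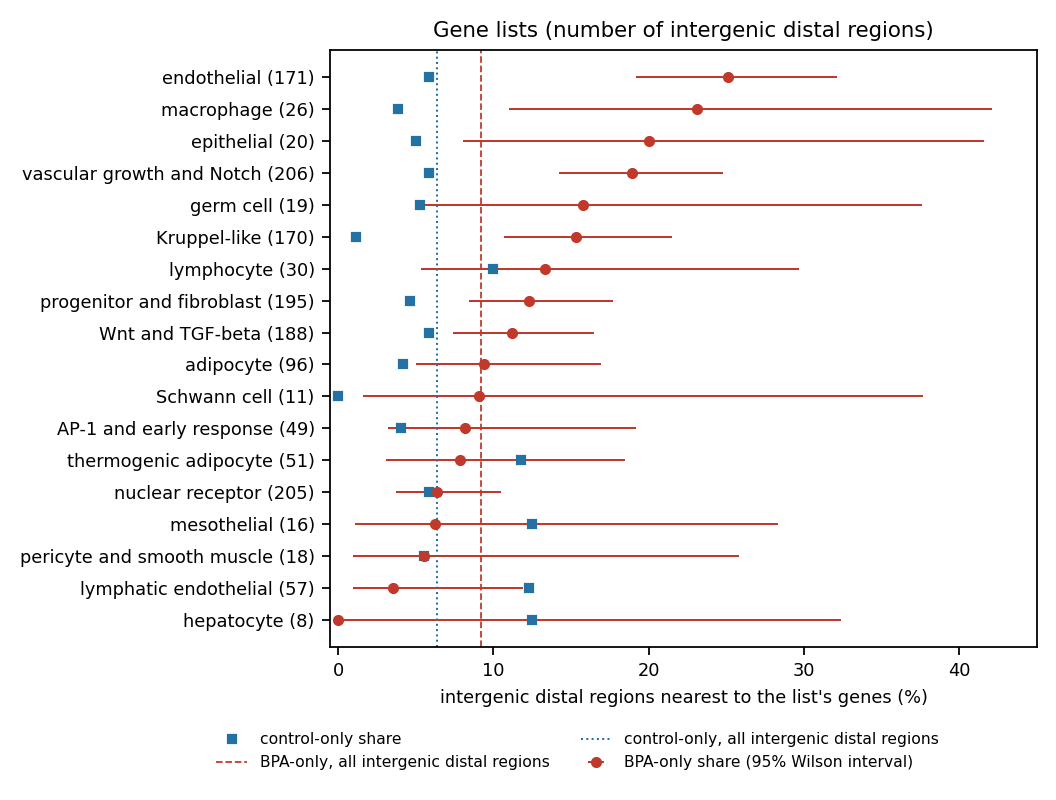
For each gene list, the percentage of intergenic distal regions nearest to its genes that were BPA-only (red, with 95% Wilson interval) or control-only (blue squares). The endothelial, vascular growth and Notch, Kruppel-like and macrophage intervals lie above the dashed line of 9.21% for all intergenic distal regions, and the number of regions is given beside each list.

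Promoters of the nearest genes were open in all 4 libraries for 54.6% of the BPA-only regions, near the 52.7% of all intergenic distal regions, and in none for 27.5%, against 32.1%. For 4.54% (4.02 to 5.12) the promoter was itself BPA-only. The last share was 3.03% for all intergenic distal regions, 2.73% for those in all 4 lists and 2.55% for control-only ones. In number, 161 of the 684 genes with a BPA-only promoter (23.5%) were nearest to a BPA-only intergenic region, as were 3392 of all 24963 genes (13.6%).

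BPA-only intergenic regions had a neighbour of the same class within 50 kb in 57.4% of cases (56.1 to 58.7). The share was 33.7% for the 3849 control-only regions and 72.3% for the 12278 regions in all 4 lists, and it depends on the number of regions in a class. Chained at gaps of at most 50 kb, the 5551 regions formed 3467 groups, of which 2364 were single regions, 659 were pairs and 317 held 3 or 4. The 127 groups of at least 5 regions held 836 regions, 15.1% of the class.

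The 5 largest clusters, with ties in size settled by the best rank, lay on 5 chromosomes. Clusters 6 (near Cxcl12) and 7 (near Rbpj) held 12 BPA-only regions, as did cluster 5, and were set aside by this rule. Cluster 1 (chr8:121152114-121466024) held 16 BPA-only regions among 37 intergenic regions over 313.9 kb between Foxl1, a forkhead factor, and 1700018B08Rik, with no control-only region. BPA 1 had 24 peaks and BPA 2 had 35 in its span, against 6 in control 1 and 8 in control 2. Cluster 2 (chr9:61427834-61770983) held 15 among 44 between Tle3 and Rplp1, a ribosomal protein gene, where the lists of the controls had 15 and 16 peaks and those of BPA had 29 and 34. Cluster 3 (chr12:79830330-80091671) held 13 among 46 round the start site of 9430078K24Rik and towards Zfp36l1, which promotes mRNA decay and whose start site was outside the span, with 21 and 18 control peaks and 37 and 41 BPA peaks.

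Cluster 4 (chr11:101807135-101937983) was the densest of the 5. Its 13 BPA-only regions were 61.9% of the 21 intergenic regions in 130.8 kb, which held the start site of Meox1, a homeobox factor, and lay beside Etv4, an ETS factor whose start site was outside it. Control 1 and control 2 had 4 peaks each there, and BPA 1 and BPA 2 had 20 and 24. Cluster 5 (chr16:30692110-30945515) held 12 among 28 between Fam43a and Xxylt1, which extends xylose on Notch receptors, with 8 and 10 control peaks and 25 and 24 BPA peaks. The clusters were chosen for their number of BPA-only regions, so these counts are a description. Ranks within them were mixed, from 14.2% at best (cluster 3) to 99.3% at worst (cluster 4).

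Local background in the BPA lists moved with the clusters to a different extent. Given as a multiple of each library's lowest, the median background of the peaks in cluster 4 was 1.03 and 1.31 in control 1 and control 2 and 1.89 and 2.37 in BPA 1 and BPA 2. In cluster 3 it was 1.95 and 1.79 against 3.47 and 3.56, and in cluster 5 it was 1.68 and 1.44 against 2.70 and 2.28. In cluster 1 the values were closer, 1.25 and 1.30 against 1.74 and 1.56, and in cluster 2 they were 1.6 and 1.6 against 1.88 and 1.77. The BPA values were thus higher than both control values in all 5 clusters. This did not hold for every cluster of like size. In cluster 6, near Cxcl12, the values were 1.28 and 1.36 in the controls against 1.24 and 1.33 in BPA. In cluster 7, near Rbpj, they were 1.82 and 1.85 against 2.70 and 3.14. The part of this background in the number of peaks was not tested.

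**Figure D5:**
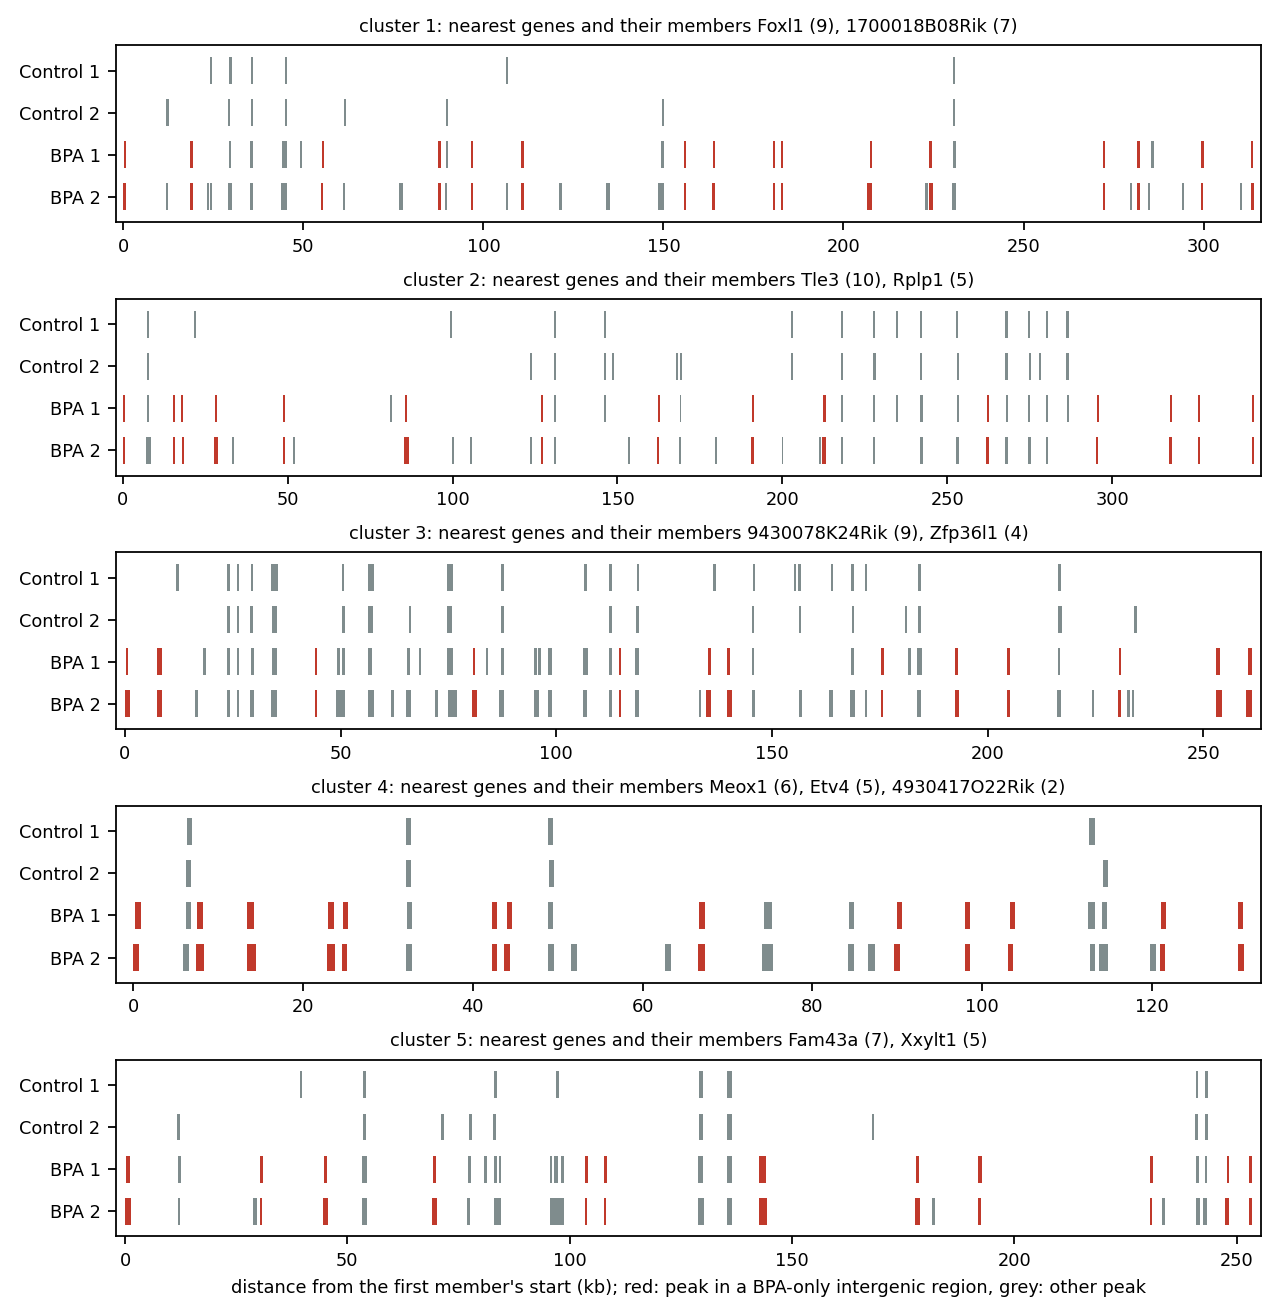
Peaks of each library across the 5 largest clusters of BPA-only intergenic regions, by distance from the start of the first region (kb). Peaks of BPA-only intergenic regions are in red and all other peaks in grey. Some grey peaks, as in clusters 3 and 4, are in both BPA rows without a control peak, in regions at promoters or inside transcripts. Shared peaks (grey, in all 4 rows) are interspersed with BPA-only ones in every cluster, and cluster 4 holds 4 peaks in each control against 20 and 24 in the BPA libraries.

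By chromosome the BPA-only share of intergenic distal regions ran from 6.6% (5.89 to 7.40) on chromosome 3 to 12.6% (11.5 to 13.7) on chromosome 11. The control-only share ran the other way on these, at 8.04% on chromosome 3 and 4.43% on chromosome 11. Of the BPA-only regions, 18.6% had their midpoint in a predicted RefSeq transcript and 16.8% in a GENCODE vM21 gene, beside 16.1% and 15.1% of all intergenic distal regions, so most were intergenic in these annotations too.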

How the data were processed

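Peak lists of 4 ATAC-seq libraries (Omni-ATAC, 2 control and 2 BPA) were used. The submitters' processing notes name Trim Galore, Bowtie2 2.3.5.1, SAMtools, MACS2 2.2.7.1 and mm10. The authors removed PCR duplicates and called peaks per library, without pooling. In each list the authors deposited a score (the −log10 q-value multiplied by 10 and truncated), the ratio or fold of pile-up to local background at the summit, and the summit's offset. They also deposited −log10 values of p and q from MACS2. A lowest −log10 q of 1.30 to 1.31 corresponds to a q threshold of 0.05. Read totals were not given in these files, so the pile-up was solved from fold and p-value, which matched for 100% of peaks within 1e-04. The 4 lists held 72375 to 98060 peaks.

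Merging, RefSeq annotation on GRCm38 (43783 curated transcripts, 30177 start sites, chromosomes 1 to 19), sequence features and motif counts were computed in Python 3.11.15 with numpy 2.4.6, pandas 2.3.3, scipy 1.17.1 and statsmodels 0.14.6, and checked on simulated peaks. Distances ran from the strongest summit. Each region was assigned to its nearest start site, which need not be its target. Wilson intervals cover counting error only, since regions are not replicates. No test between groups was run. The members, gene lists and motifs were chosen with earlier results of these data known. Named were the 10 regions with the best rank by q-value (the worse of both BPA ranks), the 5 largest clusters, the genes nearest to them, the 15 genes nearest to most members, up to 4 genes per list, and the regions at the 500 bp boundary. A gene that this rule names is not reported here. Alternatives were stricter q-values, equal or fewer peaks, reciprocal overlap, other promoter, transcript and window sizes, and leaving out each library. Chromosomes X and Y were not used here.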

Additional observations from a re-analysis of the deposited data

How the results depend on the processing

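The number of BPA-only intergenic regions was within 1.5 times 5551 under most alternatives. It was 3649 when −log10 q of at least 5 was asked of the BPA lists alone, 1374 with the best 20000 peaks, and 7127 to 13197 with a library left out, highest without BPA 1. The percentage of intergenic distal regions that were BPA-only was 14.2 with that q-value in all lists, 6.45 with it in the BPA lists alone, 11.2 with equal numbers of peaks, 12.1 with the best 20000 peaks, 8.93 with predicted transcripts counted, and 13.5 to 22.3 with a library left out (13.9 without control 1, 15.9 without control 2, 22.3 without BPA 1). The median distance was 27362.5 bp with the best 20000 peaks, 19406.5 bp with predicted transcripts, 47459 bp to protein-coding start sites and 33322 to 37277 bp with a library left out. Median G+C was 47.9% with equal peak numbers, 49.6% with the best 20000 peaks, 48.4% with peaks sharing 50% of both lengths, 47.8% with predicted transcripts, 49.3% within 100 bp of the summit and 47.0 to 48.8% with a library left out. The percentage with a neighbour within 50 kb was 47.8 with the q-value in the BPA lists alone, 56.0 with equal peak numbers, 31.2 with the best 20000 peaks, 49.2 with peaks sharing 50%, 51.9 with predicted transcripts and 62.3 to 74.9 with a library left out; it was 23.7 within 10 kb and 70.9 within 100 kb. At least 1 motif of 7 or more letters was found within 100 bp of the summit in 50.5% of BPA-only regions, within 50 bp in 30.2% and within 200 bp in 70.7%. The reciprocal overlap gave no percentage of all regions, since it has no such denominator.

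The differences in motif share between BPA-only and all intergenic distal windows kept their sign under 13 alternatives, of which those that redefine the class were added after the data were seen. They ran from 2.05 to 4.6 percentage points for ACAGGAAG, 1.55 to 4.05 for PU.1 type ETS, 0.503 to 1.17 for SOX, 1.6 to 4.96 for AP-1, −3.03 to −1.48 for CTCF and −2.50 to −0.649 for NFI. Without control 2 the difference fell to 2.05 for ACAGGAAG and 1.55 for PU.1 type ETS, and in size to −0.649 for NFI, and without BPA 1 to 2.29 for AP-1. The BPA-only share of the endothelial list exceeded that of all regions by 12.6 to 25.4 percentage points under 11 alternatives. No paired analysis was possible because every result here is a count, share or median over regions and comes from no test. With 2 libraries a group and no read counts, a weak control signal below the peak threshold was not detectable here.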
